A study of Rattus norvegicus with 12 samples.

Results

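Mast cell genes were examined in rat esophagus during tumor development under N-nitrosomethylbenzylamine (NMBA). This nitrosamine is used to raise squamous tumors in the rat esophagus. The members were the 7 genes Cpa3, Tpsb2, Tpsab1, Cma1, Kit, Fcer1a and Ms4a2, chosen by name. All 7 were measured, by 8 of the 31042 probe sets tested on the Affymetrix rat array (7 of 14217 genes), since Ms4a2 had 2 probe sets. RNA came from 12 esophagus samples, 1 array each, in 4 groups of 3, namely normal controls and NMBA rats of week 6 (labelled as an early tumor stage), of week 15 (middle stage) and of week 29 (late stage). Per the labels' protocols, rats were injected under the skin 3 times per week for 5 weeks with 0.2 ml of NMBA at 0.3 mg per kg or of its solvent, dimethyl sulfoxide in water, so all groups share the injection course. Part of each esophagus was freed of submucosa and muscle and frozen for RNA extraction. The sources used here give no strain, no age and no week for the control samples. Whether the 3 arrays of a group come from 3 rats is not labelled either, and p-values then cover the spread between samples only, part of which may be technical.

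Mast cells are tissue-resident immune cells that depend on stem cell factor and its receptor Kit. They carry IgE on the receptor FcεRI and release histamine, heparin and proteases from their granules when that receptor is crosslinked. Carboxypeptidase, tryptases and chymase are the main proteases of connective tissue mast cells, which in the esophagus lie mostly in the connective tissue beneath the epithelium.

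The samples held both epithelium and muscle. All 9 measured keratinocyte markers and all 15 measured skeletal muscle markers were above the signal floor defined below, although the protocol removes muscle. A score is the mean log2 signal of the list's markers above the floor, all of them for keratinocytes and skeletal muscle, 5 of 7 for pan-leukocyte genes and 8 of 9 for macrophages. The keratinocyte score ran from 11.87 to 13.57 and the skeletal muscle score from 9.87 to 12.19 across arrays, with the week 15 samples highest in the first and lowest in the second. The array medians of log2 signal lay between 6.41 and 6.48.

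Most mast cell genes gave signals no brighter than genes that the esophagus should not express. The files hold no detection calls, so a floor was taken from 48 probe sets of 39 genes of other organs, such as pituitary hormones, sperm proteins and eye lens crystallins. Their median signal was 4.50 on the log2 scale, and their 90th percentile, 6.40, was used as the signal floor. A probe set counted as above it where its highest group mean was. In this way 7 of the 8 mast cell probe sets were near the floor, and Tpsb2 alone lay above it. Over the whole array 45.5% of probe sets were under the floor. Against a lower limit, the 30th percentile of all probe sets (5.22), Cpa3 was also above, and 6 probe sets stayed below.

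Averaged over the 12 arrays, the order of signals was Tpsb2 at 6.78, Cpa3 at 5.27, Cma1 at 4.80, Kit at 4.76, the brighter Ms4a2 probe set at 4.63, Tpsab1 at 4.57, Fcer1a at 3.55 and the dimmer Ms4a2 probe set at 3.20. Signals of different probe sets depend on their probes, so this order is one of brightness on the array and not of RNA amounts. The ranges of Cma1, Kit, the brighter Ms4a2 probe set and Tpsab1 over the 12 arrays overlapped, and these probe sets exceeded 26, 26, 25 and 25 of the 48 silent probe sets. Fcer1a and the dimmer Ms4a2 probe set exceeded only 8 and 5 of them. Tpsb2 exceeded 47 and Cpa3 exceeded 34.

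**Figure D1:**
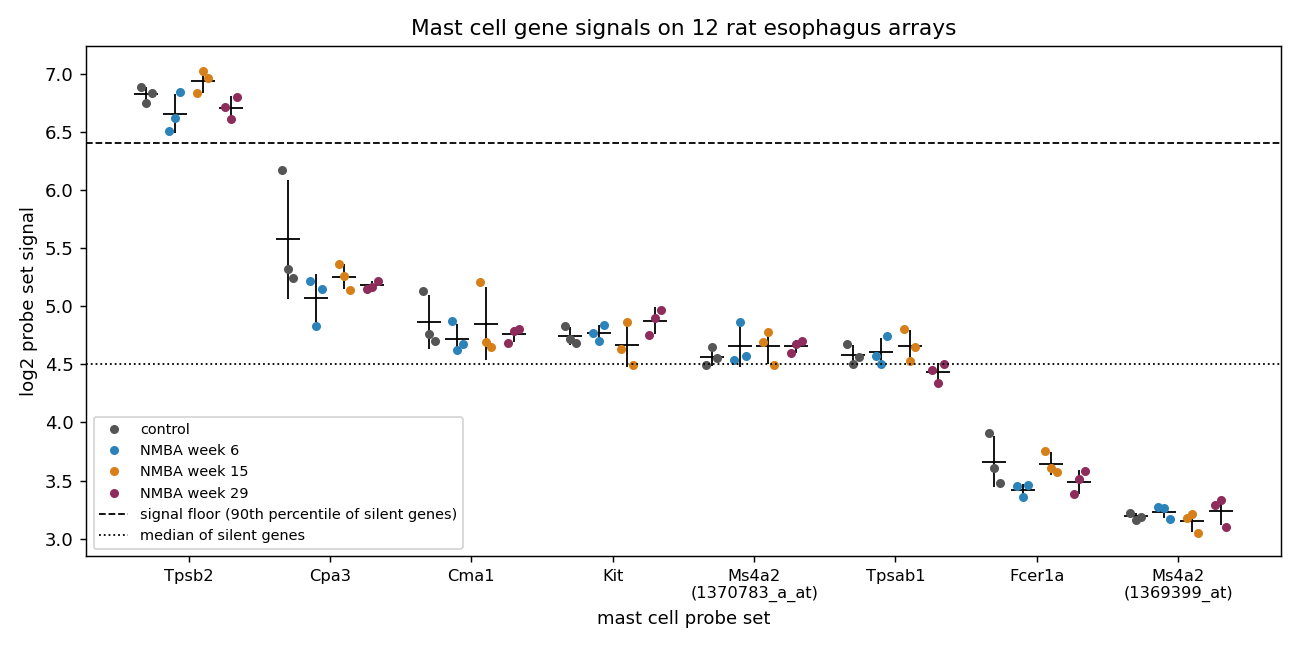
Log2 signal of each mast cell probe set (x axis, ordered by mean) on every array, as points coloured by group, with the group mean and SD in black. The dashed line is the signal floor at 6.40 and the dotted line the median of the silent genes at 4.50. Tpsb2 is the probe set above the floor on all arrays.

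No mast cell gene differed between any NMBA week and controls by limma. At an adjusted p under 0.05, 0 of the 8 probe sets were called at week 6, where 7.54% of all probe sets were called, 0 at week 15 (7.91% of all) and 0 at week 29 (15.2% of all). At an unadjusted p under 0.05 the counts were 1, 0 and 0. A moderated F test for any difference among the 4 groups also called 0 of 8 (0 at an unadjusted p under 0.05), against 35.1% of all probe sets. The median log2 difference of the 8 probe sets from control was -0.06 at week 6, -0.02 at week 15 and -0.11 at week 29, beside medians of -0.02, 0.06 and 0.04 over all probe sets. For the 7 probe sets near the floor, a difference in RNA was not detectable where the probes gave mostly background signal. In whole tissue, fewer cells of a type and less RNA per cell cannot be told apart.

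**Figure D2:**
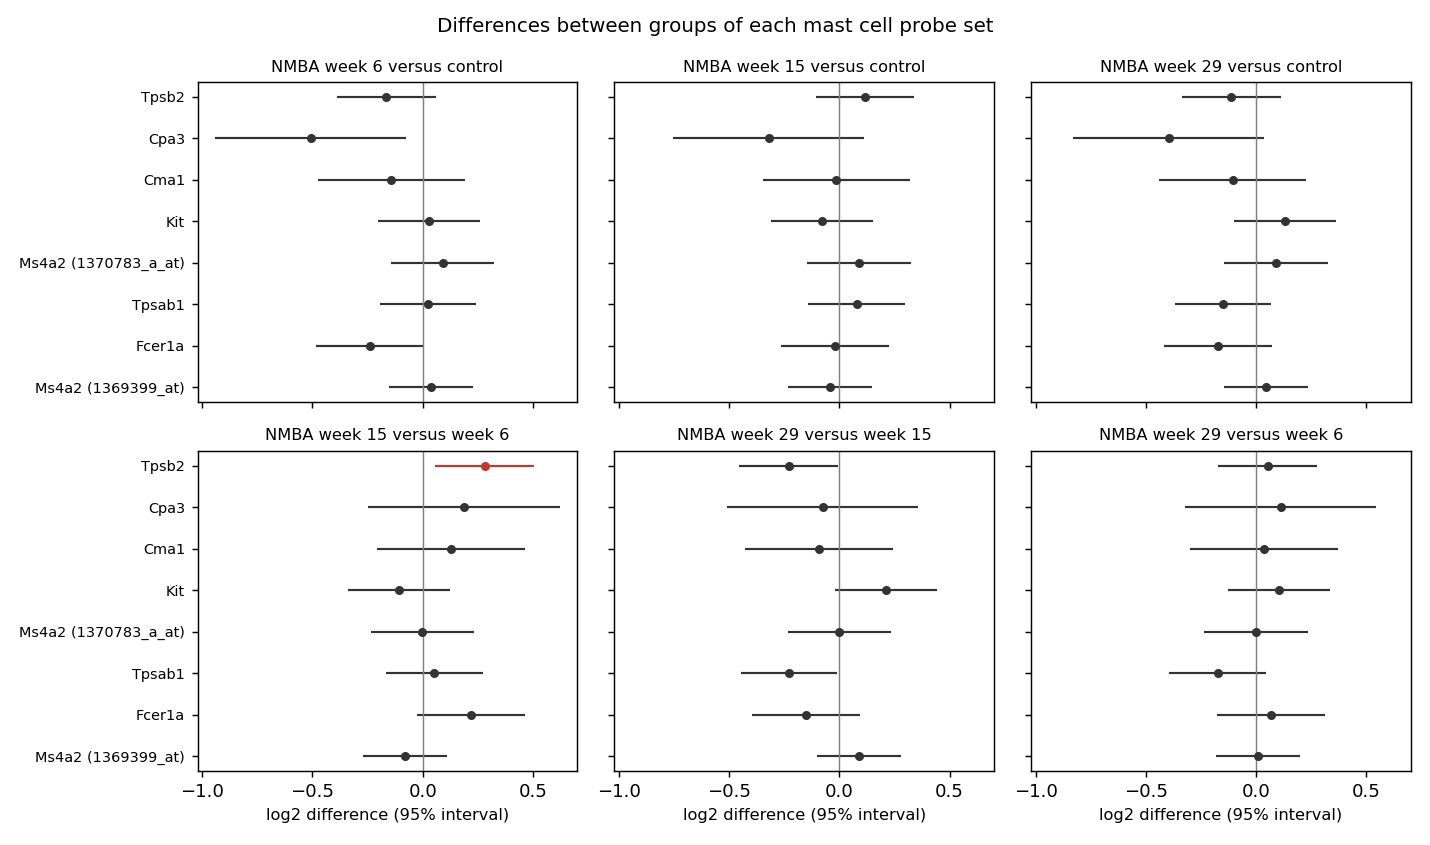
Log2 difference of each mast cell probe set in the 6 comparisons, with its 95% interval from limma. Tpsb2 between weeks 15 and 6, in red, is the 1 difference with an adjusted p under 0.05, and the interval of Cpa3 is the widest in each panel.

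Tpsb2 encodes tryptase beta 2, a trypsin-like protease stored with heparin in mast cell granules. Its log2 signal was 6.88, 6.75 and 6.83 in controls. It was 6.51, 6.62 and 6.84 in the week 6 rats, 6.83, 7.02 and 6.96 in the week 15 rats, and 6.71, 6.61 and 6.80 in the week 29 rats. All values thus lay within 0.51 log2 units of each other, and each NMBA group overlapped the controls. Group means were 6.82 ± 0.07 in controls and 6.66 ± 0.17, 6.94 ± 0.10 and 6.71 ± 0.10 at weeks 6, 15 and 29 (SD, n = 3). Differences from control were -0.17 ± 0.10 at week 6 (SE, limma adjusted p = 0.336), 0.12 ± 0.10 at week 15 (adjusted p = 0.507) and -0.11 ± 0.10 at week 29 (adjusted p = 0.472). Their 95% intervals reached from -0.39 to 0.06, from -0.11 to 0.34 and from -0.34 to 0.11.

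The only mast cell call of any comparison was Tpsb2 at week 15 against week 6. The log2 signal rose by 0.28 ± 0.10 (a 1.22-fold difference, SE, 3 arrays a group, limma adjusted p = 0.048, 95% interval 0.06 to 0.51), and the highest week 6 sample overlapped the lowest week 15 sample. In this comparison 1 of 8 mast cell probe sets was called, where 37.8% of all probe sets were. The 48 silent probe sets had a median difference of 0.09 in the same comparison, and 5 of them were called higher. The call was lost in 18 of 25 alternative analyses, although the value stayed between 0.21 and 0.38. It was lost without any 1 control, without either week 6 replicate 1 or 2, without week 15 replicate 2 or 3, and without any 1 week 29 array (adjusted p between 0.0524 and 0.18). With the skeletal muscle score as a covariate the value was 0.31 (limma adjusted p = 0.464), in a fit where calls over the whole array numbered 7, against 11723 without the covariate. Between weeks 15 and 6 that score was 10.56 ± 0.67 against 12.06 ± 0.17 (SD, n = 3), and the keratinocyte score 13.44 ± 0.11 against 12.46 ± 0.14.

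Tpsab1, the neighbouring tryptase gene in the rat genome with no gene listed between them, encodes tryptase alpha/beta 1. It had 4.67, 4.50 and 4.56 in controls, 4.57, 4.50 and 4.74 in the week 6 rats, 4.80, 4.53 and 4.65 in the week 15 rats, and 4.45, 4.34 and 4.50 in the week 29 rats. Week 29 values lay below the controls, at 4.43 ± 0.08 against 4.58 ± 0.09 (SD, n = 3), a difference of -0.15 ± 0.10 (SE, limma adjusted p = 0.321). Against week 15 the week 29 difference was -0.23 ± 0.10 (adjusted p = 0.0987), the lowest adjusted p for any member in that comparison. All of these values are near the floor. The tryptases are close relatives, and whether their probe sets tell them apart was not checked, as no probe sequences were used here.

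Cpa3, mast cell carboxypeptidase A3, had 6.17, 5.32 and 5.24 in controls, 5.22, 4.83 and 5.15 in the week 6 rats, 5.36, 5.26 and 5.14 in the week 15 rats, and 5.15, 5.16 and 5.22 in the week 29 rats. Control replicate 1 stood far above the other 11 arrays, which spanned 4.83 to 5.36. The difference at week 6 was -0.51 ± 0.20 (SE, limma adjusted p = 0.128, 95% interval -0.94 to -0.07), the largest of any member from control, and the groups did not overlap. At week 15 it was -0.32 ± 0.20 (adjusted p = 0.337) and at week 29 it was -0.40 ± 0.20 (adjusted p = 0.189). Without control replicate 1 these became -0.21, -0.02 and -0.10 (adjusted p = 0.346, 0.927 and 0.632), so the size of the difference rested on that array. The 3 week 29 samples lay between 5.15 and 5.22, below each control.

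Cma1 encodes a mast cell chymase, a chymotrypsin-like protease. Its signal was 5.13, 4.76 and 4.70 in controls, 4.87, 4.62 and 4.67 in the week 6 rats, 5.21, 4.69 and 4.65 in the week 15 rats, and 4.68, 4.79 and 4.80 in the week 29 rats. Control replicate 1 and week 15 replicate 1 were the 2 highest arrays, and all groups overlapped. Differences from control were -0.14 ± 0.15, -0.01 ± 0.15 and -0.11 ± 0.15 at weeks 6, 15 and 29 (SE, limma adjusted p = 0.599, 0.964 and 0.66). Without control replicate 1 they were -0.01, 0.12 and 0.02.

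Kit is the receptor for stem cell factor, needed for mast cell survival, and is also carried by melanocytes and by the interstitial cells of Cajal of gut muscle. It had 4.83, 4.72 and 4.68 in controls, 4.77, 4.70 and 4.84 in the week 6 rats, 4.63, 4.86 and 4.49 in the week 15 rats, and 4.75, 4.90 and 4.97 in the week 29 rats. The groups overlapped throughout, and differences from control were 0.03 ± 0.11, -0.08 ± 0.11 and 0.13 ± 0.11 at weeks 6, 15 and 29 (SE, limma adjusted p = 0.902, 0.668 and 0.42). At week 29 against week 15 it differed by 0.21 ± 0.11 (adjusted p = 0.148), and without week 15 replicate 2 by 0.31 (adjusted p = 0.0337). Of the melanocyte genes, Tyr, Tyrp1, Dct, Pmel and Mlana were under the floor, and the lineage factor Sox10 was just above it (6.57 in controls and 6.82 at week 29). Ano1, a chloride channel of interstitial cells of Cajal that epithelial cells can also express, averaged 8.51 in controls and fell at week 29 to 7.81 (by 0.70 ± 0.17, SE, limma adjusted p = 0.0241), and differed by -0.13 at week 15 (adjusted p = 0.67). Etv1, a factor of the same cells, fell by 1.10 ± 0.17 at week 15 (limma adjusted p = 0.00515) and differed by -0.21 at week 29 (adjusted p = 0.405).

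Fcer1a encodes the IgE-binding alpha chain of FcεRI, and Ms4a2 its signal-amplifying beta chain. Fcer1a had 3.91, 3.61 and 3.48 in controls, 3.45, 3.36 and 3.46 in the week 6 rats, 3.75, 3.61 and 3.57 in the week 15 rats, and 3.38, 3.51 and 3.58 in the week 29 rats. Each week 6 value lay below each control, with a difference of -0.24 ± 0.11 (SE, limma adjusted p = 0.198). At weeks 15 and 29 the differences were -0.02 ± 0.11 (adjusted p = 0.931) and -0.17 ± 0.11 (adjusted p = 0.309). Without control replicate 1 the 3 differences were -0.12, 0.10 and -0.05.

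The brighter Ms4a2 probe set had 4.49, 4.65 and 4.55 in controls, 4.54, 4.86 and 4.57 in the week 6 rats, 4.69, 4.78 and 4.49 in the week 15 rats, and 4.60, 4.67 and 4.70 in the week 29 rats. Its differences from control were 0.09 ± 0.11 at each of the 3 weeks (adjusted p = 0.639, 0.634 and 0.596). The other Ms4a2 probe set ranged from 3.05 to 3.33 over the 12 arrays, with differences from control of 0.04 ± 0.09, -0.04 ± 0.09 and 0.05 ± 0.09 (adjusted p = 0.833, 0.793 and 0.752). Both chains of the receptor thus lay within the range of the silent genes.

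The count of mast cell probe sets whose groups did not overlap is given beside the share over the whole array. In week 6 against control 2 of 8 did not overlap, Cpa3 and Fcer1a, where 35.9% of all probe sets did not. In week 15 against control 0 of 8 did not (26.4% of all), and in week 29 against control 2 of 8 did not, Cpa3 and Tpsab1 (37.7% of all). Between NMBA weeks the counts were 1 of 8 for week 15 against week 6, Fcer1a (48.8% of all), 2 of 8 for week 29 against week 15, Tpsb2 and Tpsab1 (44.6% of all), and 0 of 8 for week 29 against week 6 (17.5% of all). The spread within groups was 0.12 for Tpsb2, 0.11 for Tpsab1 and 0.28 for Cpa3 as a pooled SD, beside a median of 0.15 over all probe sets.

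Between the NMBA weeks, 0 of 8 were called at week 29 against week 15, where 35.4% of all probe sets were, and 2 passed at an unadjusted p under 0.05, Tpsb2 (-0.23 ± 0.10, limma adjusted p = 0.105) and Tpsab1. At week 29 against week 6 limma called 0 of 8 and 0% of all probe sets, with 0 members and 3005 probe sets at an unadjusted p under 0.05. Fitting array weights called 363 probe sets in that comparison, none of them a member. Member differences there ran from -0.18 for Tpsab1 to 0.11 for Cpa3, with 95% intervals between -0.39 and 0.55.

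Within groups, several of the dim probe sets were high on the same arrays. Control replicate 1 exceeded its group mean by 0.59 for Cpa3, 0.26 for Cma1 and 0.24 for Fcer1a, and week 15 replicate 1 by 0.10, 0.36 and 0.11. Control replicate 1 also had the highest pan-leukocyte score (8.57, against 7.17 to 8.16 on the other 11 arrays), the highest macrophage score (8.26) and the highest fibroblast and matrix score (11.34). The difference between the 3' and 5' GAPDH control probe sets, which grows as RNA degrades, was 0.53 in control replicate 1 and 0.60 in week 15 replicate 1, the 2 highest values of the 12 arrays. Tpsab1 exceeded its group mean by 0.09 and 0.14 on these 2 arrays and was the highest of its group on both. Kit deviated by 0.09 and -0.03, and Tpsb2 by 0.06 and -0.11. The brighter Ms4a2 probe set deviated by -0.07 and 0.03, and the other by 0.03 on both. The part of leukocyte content or RNA quality in these values was not tested.

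**Figure D3:**
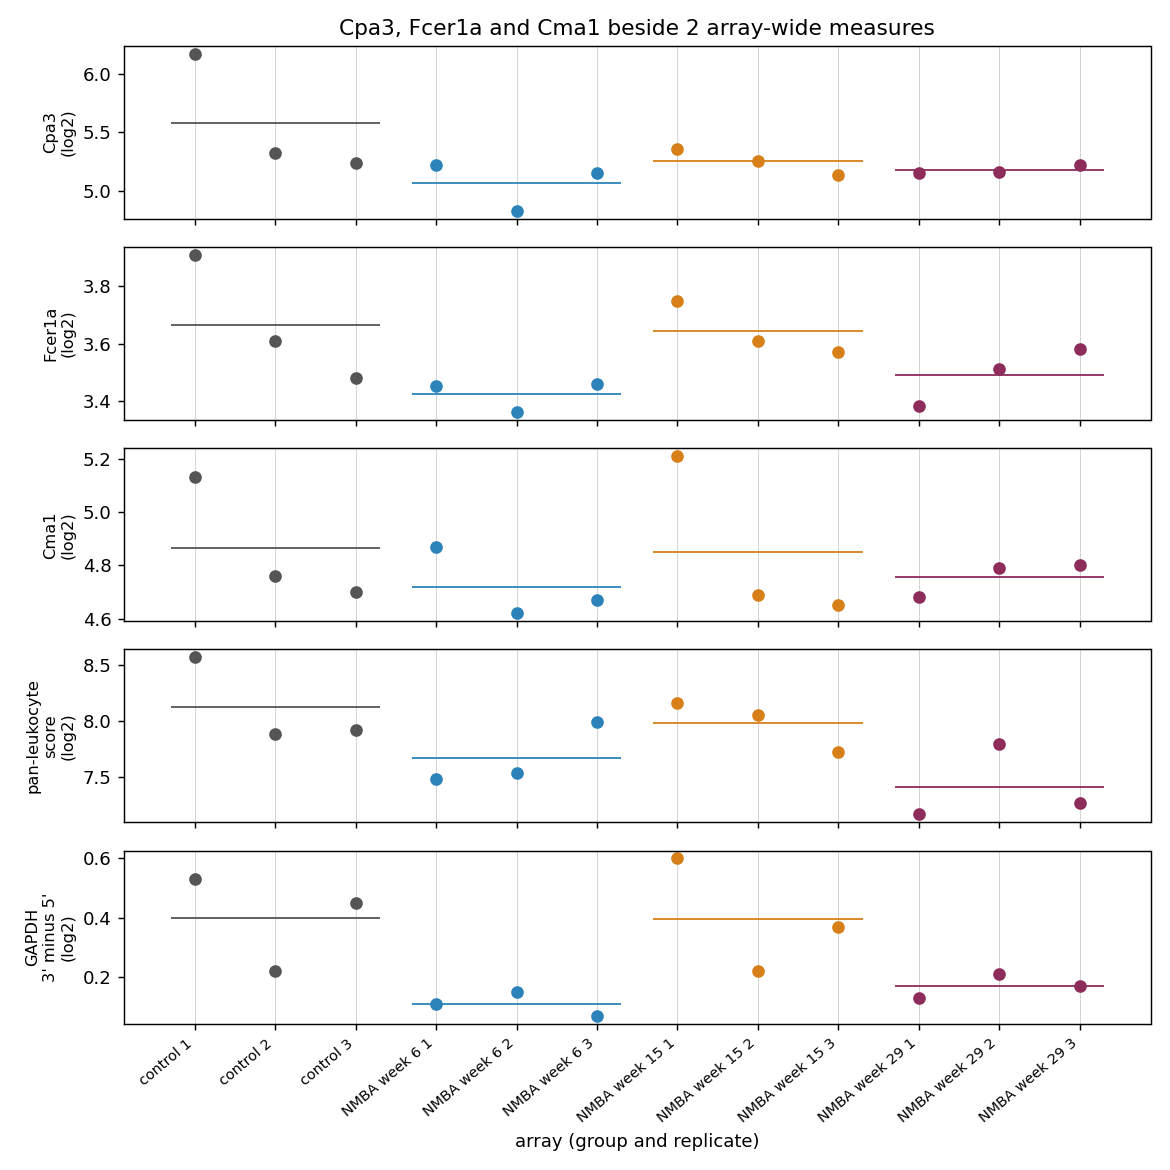
Log2 signal of Cpa3, Fcer1a and Cma1, the pan-leukocyte score and the 3' minus 5' GAPDH difference on each of the 12 arrays, with group means as lines. Control replicate 1 has the highest Cpa3 (6.17), Fcer1a (3.91) and pan-leukocyte score (8.57), and week 15 replicate 1 the highest Cma1 (5.21) and GAPDH difference (0.60).

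The genes above the floor whose pattern was most like that of Cpa3 followed control replicate 1. Among 10105 genes, the highest Pearson r with Cpa3 over the 12 arrays belonged to Mmp23 (0.87), Crabp1 (0.85), Npc2 (0.84), Pxylp1 (0.84) and Rcn1 (0.84). Without control replicate 1 their r over 11 arrays was 0.44, 0.42, 0.38, 0.25 and 0.28. The arrays share groups and tissue makeup, and these r values only describe the arrays.

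Other granule proteases of mast cells, where measured, were as dim as the members. Mcpt1, Mcpt1l1, Mcpt4, Mcpt8, Mcpt9, Mcpt10 and Gzmb had group means between 2.83 and 5.54, all under the floor, and none was called in any comparison. The list of other proteases and granule proteins held 21 genes, of which 11 were measured. Mcpt2, Ctsg and Tpsg1 were among those not measured, so nothing is known of them here. Of the 11 measured genes, Srgn, Ndst2 and Ctsl lay above the floor. Srgn, the granule proteoglycan core protein serglycin that most blood cells make, fell at week 29 to 8.26 ± 0.10, against 8.74 ± 0.20 in controls (SD, n = 3), by 0.48 ± 0.14 (SE, limma adjusted p = 0.037), and was the 1 gene of the list that passed. The list medians were -0.12, -0.05 and -0.12 at weeks 6, 15 and 29, beside -0.03, 0.03 and 0.01 over all genes. All 6 measured basophil and eosinophil genes (Prg2, Epx, Ccr3, Il5ra, Mcpt8 and Alox15) were under the floor with 0 called.

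Genes that mast cells share with many other cells were in part brighter, with 7 of 17 mediator genes, 8 of 15 genes below the IgE receptor, 7 of 9 transcription factors and 7 of 19 receptor and growth genes above the floor. Over all probe sets, 7.54%, 7.91% and 15.2% were called against control at weeks 6, 15 and 29, 37.8% between weeks 15 and 6, and 35.4% between weeks 29 and 15, and the shares of the lists are set beside these. The units differ, as a list counts the brightest probe set of each gene and the array counts every probe set, 45.5% under the floor. A fit of only the probe sets above the floor called 2871, 2572 and 4849 against control, beside 2342, 2455 and 4705 of all. At week 6, 1 of 17 measured mediator genes (5.88%) rose and 0 fell, with a median of -0.05, beside a median of -0.03 over all 14217 genes. It was Hdc, the histamine-forming enzyme histidine decarboxylase. Hdc had 5.73, 6.09 and 5.93 in controls, 6.48, 6.66 and 6.97 in the week 6 rats, 5.69, 5.80 and 5.52 in the week 15 rats, and 6.38, 6.22 and 6.42 in the week 29 rats. Each week 6 and week 29 sample was above each control, but only the week 6 samples lay above the floor of 6.40 as a group, and the means of the other groups were under it. It rose by 0.79 ± 0.14 at week 6 (SE, limma adjusted p = 0.0196), differed by 0.42 at week 29 (adjusted p = 0.0544) and by -0.25 at week 15 (adjusted p = 0.279). The skeletal muscle score was 12.06 ± 0.17 at week 6, against 11.56 ± 0.30 in controls (SD, n = 3), and with that score as a covariate the Hdc difference was 0.68 (limma adjusted p = 0.103). The vesicular monoamine transporter Slc18a2, which loads histamine into granules, averaged 6.05 to 6.17 over the groups, under the floor, and was not called.

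Of the other mediator genes, Ptgs1, cyclooxygenase 1, fell at week 29 by 1.09 ± 0.19 (SE, limma adjusted p = 0.00954) to 7.40, against 8.49 in controls, and Ccl2, a monocyte chemokine under the floor, by 1.04 ± 0.25 (adjusted p = 0.0225). These were the 2 of 17 mediator genes (11.8%, beside 15.2% of all probe sets) lower at week 29, with 0 higher and a list median of 0.09 beside 0.01 over all genes. At week 15 against control 0 of 17 passed. Between NMBA weeks, 4 of 17 (23.5%) were called at week 15 against week 6 and 4 of 17 at week 29 against week 15. At week 29 against week 6, 0 of 17 passed, beside 0% of all probe sets. Between weeks 15 and 6, Ptgs1 (0.67), Ccl2 (0.69) and Il6 (0.69) rose and Hdc fell by 1.04. Il6 was far under the floor, at 4.22, 3.41 and 3.37 in the week 15 rats, against 2.90, 2.86 and 3.16 in the week 6 rats, and without week 15 replicate 1 its difference was 0.42 (limma adjusted p = 0.0245). The Ccl2 difference was 0.44 without week 6 replicate 1 (adjusted p = 0.192) and 0.45 without week 15 replicate 1 (adjusted p = 0.194). Between weeks 29 and 15, Hdc (0.67) and Ltc4s (0.47), the leukotriene C4 synthase, rose, while Ptgs1 (-1.40) and Ccl2 (-1.15) fell.

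Of 15 measured genes that act below the IgE receptor in mast cells and in other leukocytes, 3 fell at week 6 (20.0%, beside 7.54% of all probe sets), 1 at week 15 (6.67%, beside 7.91%) and 6 at week 29 (40%, beside 15.2%), and 0 rose. List and array shares differ in unit, as stated above, and an excess of the list was not tested. The list medians were -0.32, -0.01 and -0.25, beside -0.03, 0.03 and 0.01 over all genes. Syk, the kinase that docks on the receptor's gamma chain, fell by 0.57 ± 0.09 at week 6 (SE, limma adjusted p = 0.017) and by 0.40 ± 0.09 at week 29 (adjusted p = 0.016). The phospholipase Plcg1 (-0.63 and -0.66) and the phosphatase Inpp5d (-0.59 and -0.77) fell at the same weeks. Plcg2 (-0.33), the granule fusion protein Vamp8 (-0.47) and its partner in exocytosis Stxbp2 (-0.48) fell at week 29, and the Src-family kinase Fyn fell at week 15 by 0.82 ± 0.14 (adjusted p = 0.00797). Fcer1g, the gamma chain itself, which other receptors of myeloid cells also use, averaged 8.43 in controls and 8.18, 8.26 and 8.18 at weeks 6, 15 and 29 and was not called. Plcg1 and Vamp8 are also made by epithelium, and the keratinocyte score was 12.46 ± 0.14 at week 6 and 12.25 ± 0.49 at week 29, against 13.09 ± 0.16 in controls. The pan-leukocyte score was 7.67 ± 0.28 at week 6 and 7.41 ± 0.34 at week 29, against 8.13 ± 0.38 in controls (SD, n = 3). With the keratinocyte score as a covariate, the week 29 values were -0.41 for Plcg1, -0.12 for Vamp8 and -0.10 for Stxbp2. They were -0.15 for Plcg2, -0.35 for Syk and -0.85 for Inpp5d, in a fit with 2 calls over the whole array. The part of epithelial or leukocyte content in these falls was not tested.

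Between weeks 15 and 6, 7 of these 15 genes rose and 2 fell, and between weeks 29 and 15, 2 rose and 6 fell. The shares called were 60.0% and 53.3%, beside 37.8% and 35.4% of all probe sets, and Lat and Plcg2 were under the floor. Syk (0.72), Lat (0.72), Plcg1 (0.68), Plcg2 (0.31), Inpp5d (0.57), Stxbp2 (0.78) and Vamp8 (0.48) rose between weeks 15 and 6, and Fyn (-1.06) and the fusion protein Snap23 (-0.39) fell. Between weeks 29 and 15, Fyn (0.84) and Snap23 (0.28) rose and Syk (-0.56), Plcg1 (-0.71), Plcg2 (-0.32), Inpp5d (-0.75), Stxbp2 (-0.86) and Vamp8 (-0.59) fell. The keratinocyte score was 13.44 ± 0.11 at week 15, against 12.46 ± 0.14 at week 6 and 12.25 ± 0.49 at week 29 (SD, n = 3). The skeletal muscle score was 10.56 ± 0.67, against 12.06 ± 0.17 and 11.72 ± 0.14. With the keratinocyte score as a covariate, 0 list calls of either comparison were kept. The part of tissue makeup in these differences was not tested.

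Among the 9 measured genes listed as mast cell transcription factors, which are not all factors of mast cells alone, 2 rose at week 6. At week 15, 1 rose and 2 fell, and at week 29, 2 rose and 1 fell. The list medians were -0.01, -0.22 and -0.12, beside -0.03, 0.03 and 0.01 over all genes. The shares called were 22.2%, 33.3% and 33.3%, beside 7.54%, 7.91% and 15.2% of all probe sets, which again differ in unit. Between weeks 15 and 6 and between weeks 29 and 15 they were 33.3% each, beside 37.8% and 35.4%. At week 29 against week 6 the share was 0%, beside 0% of all. Mitf, a regulator of mast cells and melanocytes that many tissues express, averaged 7.38 in controls and 7.99, 6.39 and 7.94 at weeks 6, 15 and 29. It rose by 0.61 ± 0.14 at week 6 (SE, limma adjusted p = 0.0281), fell by 0.99 ± 0.14 at week 15 (adjusted p = 0.00386) and rose by 0.56 ± 0.14 at week 29 (adjusted p = 0.0234). With the keratinocyte score as a covariate these were 0.29, -0.81 and 0.13 (limma adjusted p = 0.462, 0.0174 and 0.934). With the skeletal muscle score they were 0.47, -0.72 and 0.52 (adjusted p = 0.141, 0.245 and 0.0232). The part of tissue makeup in the Mitf values was not tested. Stat5b, a signal transducer of cytokine receptors, rose at weeks 6 (0.92) and 29 (0.73). Cebpa, a myeloid and epithelial factor, rose at week 15 (0.58), and Lmo2 fell at weeks 15 (-0.41) and 29 (-0.42). Gata1 and Gata2 averaged 4.37 to 4.73 and 6.20 to 6.40, under the floor, and were not called. Between weeks 15 and 6 Cebpa rose by 0.94, and Mitf (-1.59) and Stat5b (-1.14) fell. Between weeks 29 and 15 Mitf (1.55) and Stat5b (0.94) rose, and Cebpa fell by 0.96. The skeletal muscle score lay below all controls on all 3 week 15 arrays and was 10.56 ± 0.67, against 11.56 ± 0.30 in controls.

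The list of mast cell receptors and growth signals had 19 measured genes. Of these, 1 rose and 2 fell at week 29, 1 fell at week 15 and 0 passed at week 6. The list medians were -0.09, 0.07 and -0.0042 at weeks 6, 15 and 29, beside -0.03, 0.03 and 0.01 over all genes. The shares called were 0%, 5.26% and 15.8%, beside 7.54%, 7.91% and 15.2% of all probe sets. Kitlg, stem cell factor, the ligand of Kit, had 8.15 at week 29, against 8.64 in controls, and fell by 0.48 ± 0.14 (SE, limma adjusted p = 0.0403). This call was kept in 7 of 12 fits with 1 array left out. With the keratinocyte score as a covariate the Kitlg difference was -0.12 (limma adjusted p = 0.949), and with the skeletal muscle score -0.45 (adjusted p = 0.0479). Il33, an epithelial alarm cytokine that acts on mast cells, fell by 0.52 ± 0.15 at week 29 (adjusted p = 0.0339), while its receptor Il1rl1, at 5.90 to 6.05 in the groups, was under the floor and not called. Cysltr2, a leukotriene receptor far under the floor, rose by 0.47 at week 29, to 4.34 against 3.87 in controls. In that comparison the silent probe sets had a median difference of 0.12, with 0 called. The ectoenzyme Enpp3 fell by 0.62 at week 15. Between NMBA weeks, Csf2rb, Hrh4, Ptgdr2 and Slc6a4 rose (0.30, 0.26, 0.40 and 0.86) and Il4r, Siglec5 and Enpp3 fell (-0.41, -0.64 and -0.61) at week 15 against week 6, which is 36.8% of the list beside 37.8% of all probe sets. Csf2rb, Hrh4 and Siglec5 were under the floor, in a comparison where the silent probe sets shifted by 0.09, and Csf2rb differed by 0.20 without week 15 replicate 1 (limma adjusted p = 0.138). At week 29 against week 15 (21.1%, beside 35.4% of all), Siglec5 (0.74) and Enpp3 (0.48) rose and Il33 (-0.50) and Slc6a4 (-0.68) fell.

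**Figure D4:**
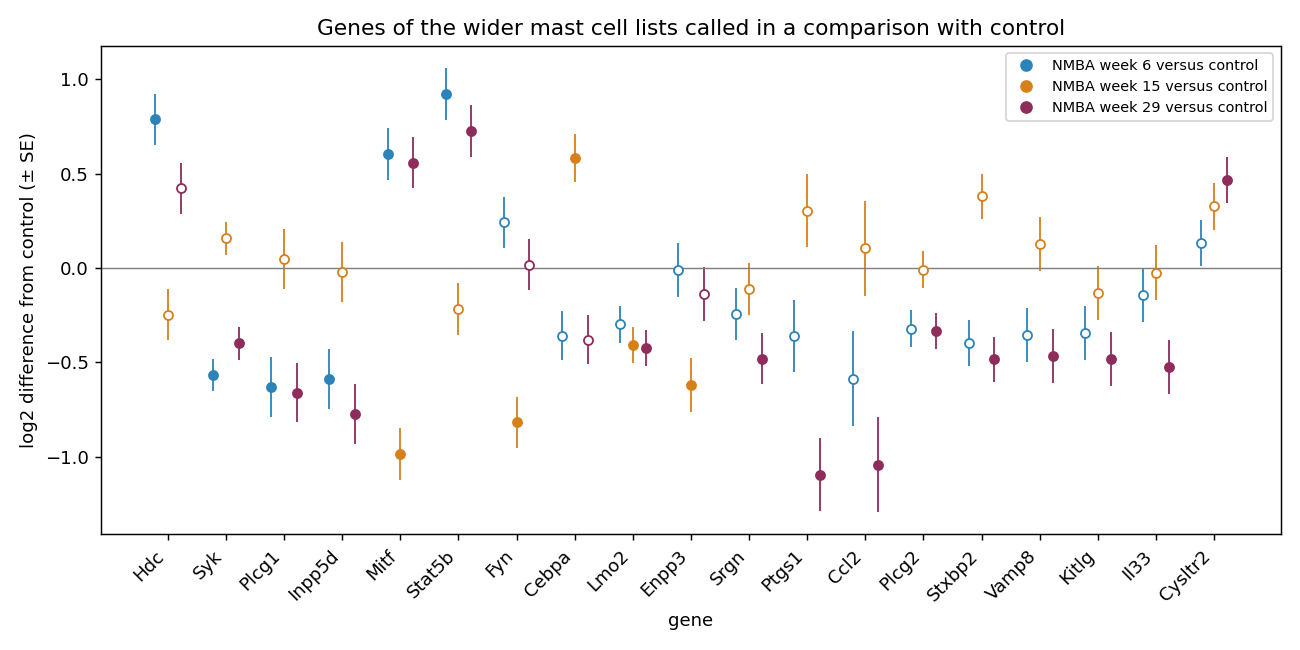
Log2 difference from control, with its SE, at weeks 6, 15 and 29 for the 19 genes of the wider mast cell lists that were called in a comparison with control. Filled points have an adjusted p under 0.05. Hdc, Mitf and Stat5b are higher at weeks 6 and 29 than at week 15, and Ptgs1 and Ccl2 are lowest at week 29.

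The calls of the wider lists against control moved with those of the whole array when arrays were left out. At week 6, where 6 list genes were called, 0 were kept without control replicate 1 or 3 or without week 6 replicate 2 or 3, and 3 without week 6 replicate 1. In the same 5 fits, 3, 1, 1, 3 and 57 of the 2342 calls over all probe sets were kept. At week 29, 0 of 15 were kept without week 29 replicate 3, and 4, 3 and 2 of 15 without week 29 replicate 2, control replicate 1 or control replicate 3. Of the 4705 calls over all probe sets, 272, 758, 675 and 964 were kept in these fits. At week 15, Fyn and Mitf were called without any 1 array. Of the 5 calls there, 2 were kept without control replicate 1 or 3 or without week 15 replicate 3, and 3 without control replicate 2, where 1506, 901, 910 and 810 of 2455 calls over all probe sets were kept. Of the values against control, Vamp8 at week 29 alone moved by over 1.5 times when 1 array was left out (-0.31 without control replicate 1, limma adjusted p = 0.159). Between weeks 15 and 6, 14 to 22 of the 23 list calls were kept when 1 array was left out, and between weeks 29 and 15, 13 to 19 of 19. Hrh4 was called in 2 and Ccl2 in 3 of the 12 such fits of weeks 15 and 6.

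With a score as a covariate, calls were lost over the whole array as well as in the lists. With the skeletal muscle score, 0 of 6, 0 of 5 and 14 of 15 list calls against control were kept at weeks 6, 15 and 29, and 1, 0 and 4435 probe sets were called over the array. The list values were at a median of 88.3%, 62.0% and 98.2% of those without the covariate. With the 3' minus 5' GAPDH difference, 0, 5 and 0 were kept with 8, 2612 and 132 probe sets called over the array, and median values at 84.2%, 100% and 89.5%. With the keratinocyte score, 0, 2 and 0 were kept with 0, 361 and 2 called over the array, and median values at 90.3%, 77.4% and 84.5%. With the pan-leukocyte score, 0, 5 and 0 were kept with 0, 1818 and 60 called over the array, and median values at 109%, 95.8% and 83.1%. Among the calls against control, single genes ran from 21.5% to 165%, both at week 29 with the keratinocyte score, and 0 turned sign. Between weeks 15 and 6, the skeletal muscle, keratinocyte, pan-leukocyte and GAPDH fits kept 0, 0, 18 and 9 of 23 list calls. They called 7, 0, 11209 and 4849 probe sets over the array. Between weeks 29 and 15 they kept 3, 0, 13 and 13 of 19, with 1182, 0, 9347 and 6915 called. With the keratinocyte score, median values were 61.1% and 55.6%, and single genes ran down to 2.93% and -49.1%, a turned sign.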

How the data were processed

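The submitters' processing notes name Affymetrix Expression Console as the tool with which the authors made the deposited log2 signals. How probes were summarized is not stated in these sources, and the log2 scale was read from the values (2.49 to 14.71). The values were taken as they are, without detection calls, and 12 arrays set the precision. The 57 array controls among 31099 probe sets were dropped. The platform annotation gave 1 symbol to 20826 of the rest, several to 436 (given no name) and did not list 9780. Gene identifiers of 20758 were found in the RefSeq table, and 0 symbols changed. The brightest probe set stood for a gene.

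A single model of the 4 groups was fitted to the 12 arrays with limma (version 3.58.1, R version 4.3.3), using lmFit and eBayes with two-sided tests and 8 residual degrees of freedom. Benjamini-Hochberg adjustment ran over all 31042 probe sets, and a call is an adjusted p under 0.05. The fit was tested on simulated data. The members and lists were chosen with earlier results of these data known. Named were all member probe sets, each gene of the wider mast cell lists called in a comparison, and the 5 genes most like Cpa3. Gata1, Gata2, Fcer1g, Slc18a2, Il1rl1, Ano1, Etv1, Sox10, the dim proteases and the melanocyte, basophil and eosinophil genes were named after their values were seen. Alternatives were array median subtraction, quantile normalization, a floor filter, arrayWeights, an eBayes trend, covariates for muscle, keratinocytes, leukocytes and RNA integrity, fits of 2 groups, a replicate block and leaving out arrays.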

Additional observations from a re-analysis of the deposited data

How the results depend on the processing

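The count of member probe sets called against control was 0 at weeks 6, 15 and 29 in the main analysis and in each alternative run, including each array left out in turn. At week 15 against week 6 it was 1 in the main analysis. It was 0 with the array median subtracted, with the eBayes trend, with each covariate (3' minus 5' GAPDH, skeletal muscle, keratinocyte and, chosen after seeing the data, pan-leukocyte score) and in the fit of the 6 arrays alone, and it was between 0 and 1 when single arrays were left out. At week 29 against week 15 it was 0, and between 0 and 1 when single arrays were left out, the call being Kit. Quantile normalization, arrayWeights, the mean of a gene's probe sets, leaving out week 6 replicate 3 or week 15 replicate 1, the floor filter (which tested Tpsb2 alone of the members) and leaving out control replicate 1 with week 15 replicate 1 (chosen after seeing the data) kept the Tpsb2 call. The cause of the lost calls was not tested. Of 1152 values of single members under alternatives, 1133 stayed on the same side of the threshold, and 93 of these, all uncalled, turned sign. Same-numbered arrays of different groups correlated in their deviations at -0.41 to 0.29, with 8 of 18 pairs over 0.1. Arrays with different numbers were not set beside them, so these values do not decide whether the numbers pair the samples. With the replicate block the week 15 against week 6 count was 0 (Tpsb2 0.28, limma adjusted p = 0.0534), and other member counts did not change. Signals near the floor limit what these arrays can show for 7 of the 8 probe sets.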
